A study of Caenorhabditis elegans with 6 samples.

Results

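The linc genes of the nematode Caenorhabditis elegans are long intervening non-coding RNA genes, numbered under the shared symbol linc. They were chosen here by name alone: a gene was taken when its identifier maps to the symbol linc followed by a number. This gave 170 of the 46778 genes in the table, of which 169 are annotated as lincRNA and 1, linc-171, as ncRNA. Positions are given in the genome build WBcel235. RNA from the animals was sequenced in 6 libraries, 3 from the group HLB01 and 3 from the group Control. HLB01 is known here by this code name only, and the title of the series speaks of an extract from the root of Vicatia thibetica. By their titles the 3 HLB01 libraries are replicates of 1 treatment, although the labels' agent entry is HLB01 in the first, HLB02 in the second and HLB03 in the third; the titles were followed. The sources used here give no strain, age, stage, dose or duration. Nor do the labels say that replicates were separate cultures, so the p-values reflect the spread of these samples alone, which may be technical.

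A long intervening non-coding RNA is transcribed from its own gene between protein-coding genes, is usually processed like a messenger RNA, and has no evident protein product. In the nematode most of these genes were catalogued from transcript models, and only a few have an assigned function. Their transcripts are typically scarcer than messenger RNAs, so the number of sequenced fragments behind each value bears on what can be read from it.

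Values are TPM as deposited by the authors, a measure of how much of a library's RNA belongs to a gene once transcript length has been divided out. The columns summed to 996559 to 997388 TPM. Read counts were not used here, so depth was estimated for each transcript length from the smallest steps between values, as the worth of 1 sequenced fragment in TPM. One library, HLB01 replicate 3, was set off by the first principal component of the tested genes (31.3% of their variance): it scored 32.01 and the other libraries -15.3 to -0.57. It also held the most ribosomal RNA, 4895 TPM against 529.5 to 2684 TPM in the others. The summed marker genes of the intestine came to 2942 to 3439 TPM in HLB01 libraries and 3529 to 3935 TPM in Control libraries, and those of the early embryo to 20.96 to 25.5 TPM in HLB01 and 25.6 to 28.4 TPM in Control. Neither pair of ranges overlapped, while those of sperm, germline, muscle, neurons and male-specific genes did. Over the 7 marker lists, 61 of 62 names were found, none of these at 0 in all libraries, and by limma 0 of the 47 tested markers passed, with 5 at an unadjusted p under 0.05, 4 of these in the intestine list. The part of tissue make-up in the linc values was not tested, and in bulk RNA fewer cells of a type and less RNA per cell cannot be told apart.

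Of the 170 linc genes, 57 (33.5%) were listed at 0 in all 6 libraries, against 56.2% of all genes and 6.23% of protein-coding genes. The other 113 were above 0 in at least 1 library, and 39 of them in all 6. A level of 1 TPM or above in at least 3 libraries, which was also the requirement for testing, was reached by 26 linc genes (15.3%). That share was 26.9% among all genes and 61.2% among protein-coding genes. The 26 genes lie on chromosome X (8 of 33 linc genes there), II (6 of 34), III (5 of 22), V (3 of 33), I (2 of 22) and IV (2 of 26). Of the 54 linc genes with a single exon, 3 were among them.

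Detection went with transcript length. Among the 45 linc genes under 300 bases, 31 (68.9%) were at 0 in every library, against 20 of 61 (32.8%) at 300 to under 600 bases, 4 of 29 (13.8%) at 600 to under 1200 bases and 2 of 35 (5.71%) at 1200 bases and over. The genes at 0 throughout had a median length of 270 bases and all 170 a median of 450. The estimated worth of 1 fragment falls steeply over the same range. A single fragment was worth 3.62 to 4.10 TPM in a transcript of 200 bases, 0.602 to 0.682 TPM in one of 300 bases and 0.0489 to 0.0554 TPM in one of 1000 bases. At 200 bases a single fragment is thus above 1 TPM, while at 1000 bases it is far below, and of the linc genes of 1200 bases and over only linc-22 reached that level in at least 3 libraries. Of the linc genes below the level for testing, 13 rested on at least 30 estimated fragments over the 6 libraries, and their transcripts measured 533 to 3548 bases. The richest of them was linc-76 on chromosome III, with 0.60, 0.43 and 0.32 TPM in HLB01 and 0.57, 0.44 and 0.69 TPM in Control, on 128.8 fragments in all. linc-63, at 3870642 to 3871267 on the minus strand of chromosome I, had 0.82, 0.78 and 0.85 TPM in HLB01, against 0.98, 1.29 and 1.36 TPM in Control, and linc-31, at 8152035 to 8154464 on the minus strand of chromosome V, had 0.38, 0.24 and 0.29 TPM in HLB01, against 0.23, 0.13 and 0.10 TPM in Control. The groups did not overlap in either gene, and both were named after their values were seen. Among all tested genes, 13.8% had groups without overlap. Neither gene passed when all genes above 0 were tested (limma adjusted p = 0.719 for linc-63 and 0.732 for linc-31).

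**Figure D1:**
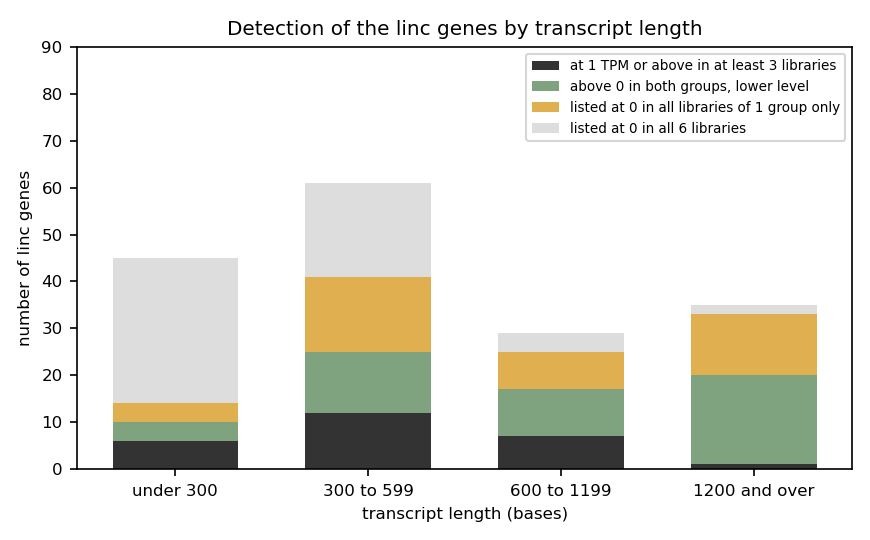
Number of linc genes (vertical axis) by transcript length in bases (horizontal axis), stacked by how they were detected: at 1 TPM or above in at least 3 libraries, above 0 in both groups at a lower level, listed at 0 in all libraries of 1 group only, or listed at 0 in all 6 libraries. The light grey share shrinks from 31 of 45 genes under 300 bases to 2 of 35 at 1200 bases and over; linc-53, which is at 0 in HLB01 only, is counted in the black part.

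The estimate of the worth of 1 fragment was fitted on other genes and checked on linc genes that it had not used. Of 227 low linc values, 151 (66.5%) lay within 0.1 of a whole number of fragments, a tolerance that covers 20% of the number line. The check was not limited by length, and values have 2 decimals. In linc-125, 1 fragment was worth 0.0129 TPM in HLB01 replicate 1, little more than the last decimal. In such long transcripts rounding itself helps set how near a value lies to a whole number, so 20% is no baseline there. The worth of 1 fragment remains an estimate, and it did not hold everywhere: linc-4, with a transcript of 216 bases, was listed at 0.49, 0.18 and 0.13 TPM in HLB01 and 0.19, 0.06 and 0.43 TPM in Control, all below the worth of 1 fragment at its length. Fragment numbers below are from this estimate and their limits cover counting error only.

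**Figure D2:**
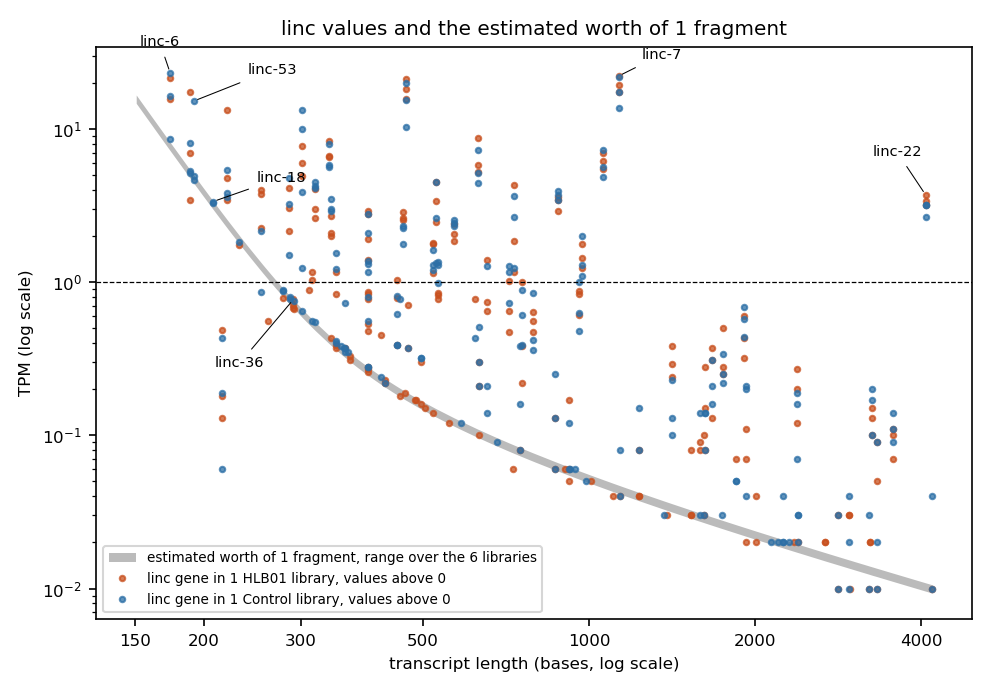
Every linc value above 0 (TPM, log scale) against the transcript length in bases (log scale), 1 point per gene and library, HLB01 in orange and Control in blue. The grey band is the estimated worth of 1 fragment over the 6 libraries and the dashed line marks 1 TPM: many low values lie on the band, those of linc-18 and linc-36 among them, and the band crosses 1 TPM between 200 and 300 bases.

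The 26 linc genes at 1 TPM or above in at least 3 libraries had mean levels of 0.792 to 18.6 TPM over the 6 libraries, with a median of 3.18 TPM, against a median of 18.0 TPM among tested protein-coding genes. Only linc-7, linc-9 and linc-6 averaged 10 TPM or more, and 17 of the 26 averaged under 5 TPM. Over the 6 libraries they rested on 5.1 to 2510 estimated fragments each, with a median of 67.2, and 7 of them on fewer than 30. All linc genes together summed to 134.3, 158.7 and 138.4 TPM in HLB01 and 145.8, 138.9 and 153.4 TPM in Control, 0.0135% to 0.0159% of the library total. These sums overlapped between the groups. The number of linc genes above 0 was 66, 72 and 64 in HLB01 and 71, 67 and 65 in Control.

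**Figure D3:**
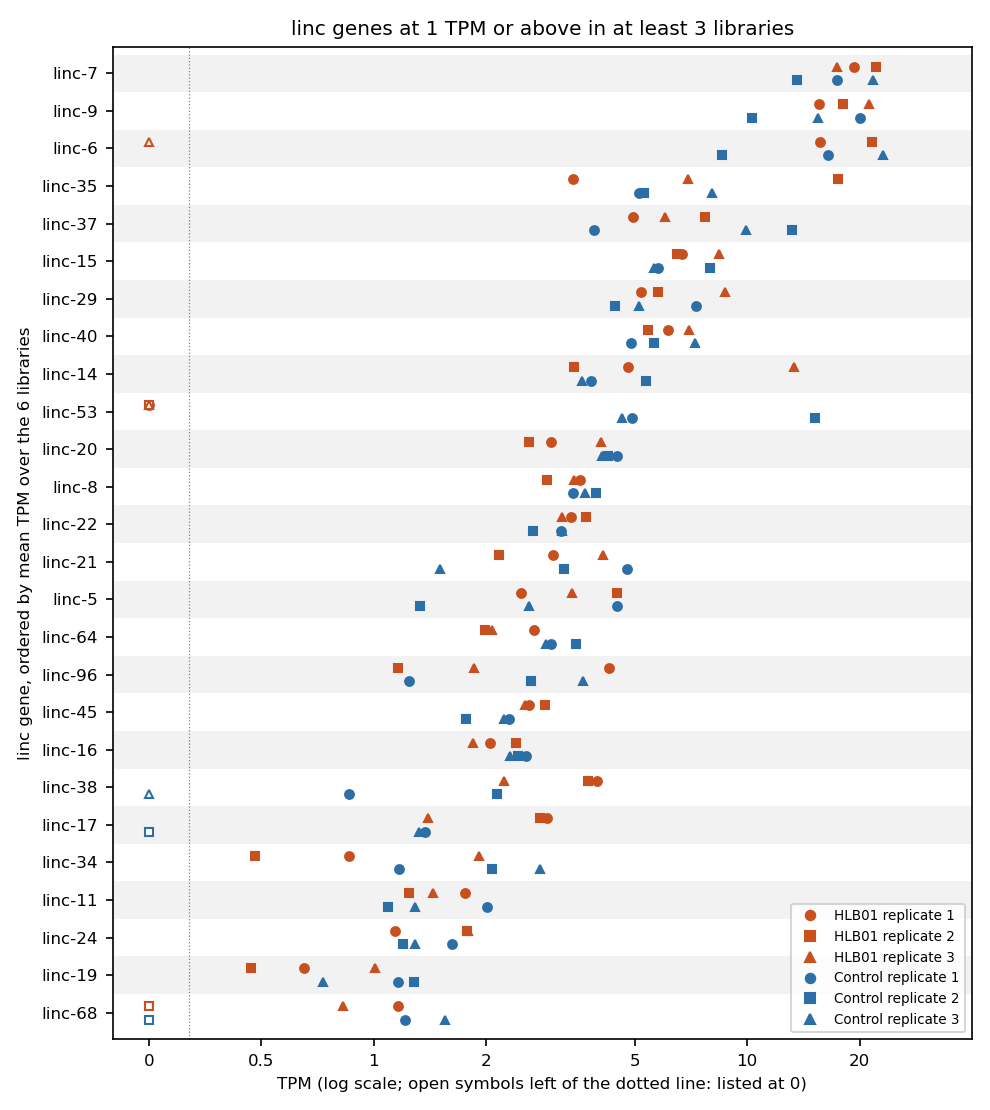
TPM (log scale) of the 26 linc genes at 1 TPM or above in at least 3 libraries, ordered by mean level, with 1 symbol per library, HLB01 in orange above Control in blue. Open symbols left of the dotted line are values listed at 0, which occur in linc-6, linc-53, linc-38, linc-17 and linc-68; in linc-53 all 3 HLB01 libraries are at 0 and lie on top of each other.

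The question put by the design is which transcripts differ in HLB01 animals from those in Control animals. Among the 26 tested linc genes, 1 passed the test, linc-53, which was lower in HLB01, and 0 were higher. It is also the 1 tested linc gene that reached 1 TPM in the libraries of a single group, so its entry into the test was tied to the difference tested. The genes were tested with limma on log2(TPM + 1), with p-values adjusted over all 12590 tested genes and a threshold of 0.05. Of all tested genes, 50 passed (0.397%), 21 of them higher (0.167%) and 29 lower (0.23%) in HLB01. An unadjusted p under 0.05 was found for 4 of the 26 linc genes (15.4%), against 8.32% of all tested genes, and 2 of the 4 were higher and 2 lower in HLB01. The log2 fold change was above 0 in 15 linc genes and below 0 in 11, with a median of 0.047 over the 26 against -0.0038 over all tested genes. Its size without regard to sign had a median of 0.26 in the linc genes and 0.075 in all tested genes, and the median SE was 0.22 in the linc genes against 0.095 in all. Both the fold changes and their errors were wider in the linc genes than in all tested genes. Wide fold changes were not particular to them. The median size was 0.26 in the 92 tested ncRNA genes without a linc symbol. It was 0.18 in the 9 other tested lincRNA genes and 0.16 in the 4 tested antisense RNA (anr) genes.

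linc-53 (WBGene00219733) lies on the minus strand of chromosome I, at 6860395 to 6861997, and has 2 exons joined into a transcript of 192 bases. It was listed at 0, 0 and 0 TPM in HLB01, against 4.92, 15.2 and 4.61 TPM in Control (limma adjusted p = 0.0324, for a gene that met the level for testing through its Control libraries alone). The groups did not overlap, and Control replicate 2 was the highest library. No fold is given, since all HLB01 libraries are at 0. By the fragment estimate the Control values stand for 1.01, 3.07 and 1 fragments, 5.08 in all. One fragment of this gene would have been worth 4.63, 4.42 and 5.01 TPM in the HLB01 libraries, so that a count of 0 allows up to 13.9, 13.3 and 15.02 TPM in each of them, taken as 3 fragments. The Control values of replicates 1 and 3 lie under that limit, which is for each library alone. Applied to the 3 HLB01 libraries together, 3 fragments come to about the worth of 1 fragment in each. That is under the Control mean of 8.24 TPM, which itself rests on 5.08 fragments.

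Other genes of nearly the same transcript length showed the same step in single libraries of either group. T19A5.11, of 189 bases, was at 5.04 TPM in HLB01 replicate 1 and at 0 elsewhere. C36E8.10, also of 189 bases, was at 5 TPM in Control replicate 3 and at 0 elsewhere, and K07C11.12, of 195 bases, at 4.55 TPM in Control replicate 1 and at 0 elsewhere. These genes were chosen after their values were seen, to show what 1 fragment looks like at this length. Among the 49 genes that passed the test and had an estimate, linc-53 rested on the second fewest fragments, after F13B9.9 with 4.93, and the median was 3378. No annotated gene overlaps the exons of linc-53. Its neighbours are glh-1, which encodes a germline RNA helicase of P granules and lies 2858 bases away, and let-383, 315 bases away. The helicase gene averaged 155.1 ± 10.05 TPM in HLB01 and 149.6 ± 2.66 TPM in Control, and let-383 averaged 6.46 ± 0.491 TPM in HLB01 and 6.54 ± 0.385 TPM in Control (SD, n = 3 each), so neither passed the test (limma adjusted p = 0.858 and 0.980).

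The call of linc-53 was lost in 5 of 6 fits with 1 library left out, while its fitted log2 difference stayed between -3.29 and -2.53. In those fits the calls over all genes also fell, to 19 to 32 in place of 50. Without HLB01 replicate 1, 2 or 3 the limma adjusted p of linc-53 was 0.132, 0.12 and 0.0867, and without Control replicate 1 or 3 it was 0.0714 and 0.0607. Without Control replicate 2, its highest library, the limma adjusted p was 0.0198, but only 2 libraries at 1 TPM or above then remained, since the tested genes were kept the same. Over all 15 alternative settings in which it was tested it passed in 6, with limma adjusted p from 0.00504 to 0.148.

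**Figure D4:**
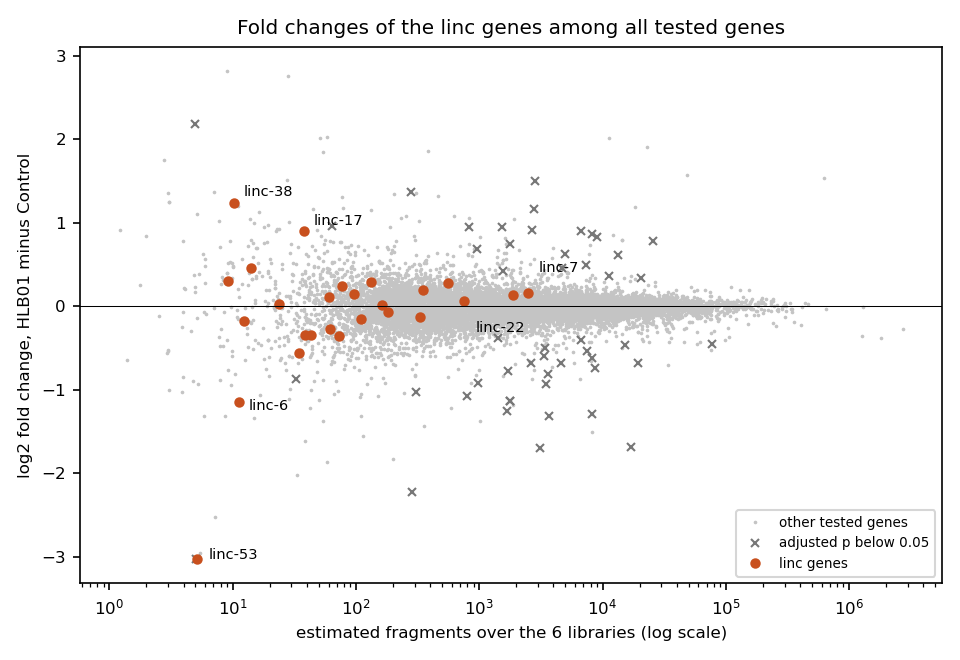
Log2 fold change of HLB01 over Control, on the log2(TPM + 1) scale, against the estimated fragments summed over the 6 libraries (log scale), for the 26 linc genes (orange), all other tested genes (grey) and the genes past the adjusted threshold of 0.05 (crosses). The linc genes fan out toward the left, where few fragments were seen, and linc-53, at 5.08 fragments, is drawn at its fitted value, which is not a bound because its HLB01 libraries are all at 0.

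Values at 0 in 1 group only were common among the linc genes. Of the 113 above 0 in some library, 42 (37.2%) were listed at 0 in all libraries of 1 group only, against 8.45% of all genes above 0 in some library. In 20 of them all HLB01 libraries were at 0, and in 22 all Control libraries were. Both directions were thus about equally frequent. Among the 20 at 0 in HLB01, 14 were above 0 in 1 Control library, 4 in 2 and 2 in all 3. Among the 22 at 0 in Control, 16 were above 0 in 1 HLB01 library, 4 in 2 and 2 in all 3. The group with values rested on a median of 1.0 fragment in both sets, at most 5.1 (linc-53) and 4.7 (linc-113). In 30 of the 42 genes a single library held all the signal, which by itself puts the other group at 0. The 8.45% is over genes of all levels, and no share was taken for genes of like level.

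Of the 42, only linc-53, linc-18 and linc-105 reached 1 TPM in any library, all of them at 0 in HLB01. linc-18, at 12215538 to 12216323 on the plus strand of chromosome I, with a transcript of 208 bases, was listed at 0, 0 and 0 TPM in HLB01, against 3.28, 3.35 and 0 TPM in Control. Each of the 2 values stands for 1 fragment, and F09C8.6, with a transcript of the same length, was also at 3.35 TPM in Control replicate 2. An exon of linc-18 overlaps sdz-14 on the other strand, which averaged 8.43 ± 2.08 TPM in HLB01 and 10.1 ± 2.62 TPM in Control (SD, n = 3 each), and the strand setting was not given in the sources used here. linc-105, at 10718341 to 10719485 on the plus strand of chromosome III, was listed at 0, 0 and 0 TPM in HLB01, against 0.65, 0 and 1.24 TPM in Control, which stand for 1.01 and 2.02 fragments. Neither gene reached the level for testing.

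The reverse pattern, above 0 in all 3 HLB01 libraries and at 0 in Control, was seen in linc-113 and, at higher TPM, in linc-36, at 5380408 to 5381217 on the minus strand of chromosome IV. Its values were 0.71, 0.68 and 0.77 TPM in HLB01, against 0, 0 and 0 TPM in Control, and correspond to 1, 1.01 and 1.01 fragments. It lay below the level for testing. When every gene above 0 was tested, linc-36 was the linc gene that passed (limma adjusted p = 0.015) and linc-53 did not (limma adjusted p = 0.0976). In that test linc-36 entered through its HLB01 libraries alone, so its entry was tied to the difference tested. Its SE of 0.0564 came from about 1 fragment in each HLB01 library and 0 in each Control library. linc-113 and linc-121, both over 1500 bases, were the other 2 linc genes above 0 in all libraries of 1 group and at 0 in all libraries of the other. linc-113 had 0.03, 0.08 and 0.03 TPM in HLB01, against 0, 0 and 0 TPM in Control. linc-121 had 0, 0 and 0 TPM in HLB01, against 0.02, 0.02 and 0.04 TPM in Control. Among all 12590 tested genes, 5 were at 0 in 1 group only, and 4 of these passed the test. Such a gene could be tested only where all 3 libraries of the other group were at 1 TPM or above, so that this count was largely set by the level for testing.

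The groups did not overlap in 6 of the 26 tested linc genes (23.1%), against 13.8% of all tested genes. The same held in 2 of the 9 other tested lincRNA genes (22.2%) and 1 of the 4 tested anr genes. Among the 92 tested ncRNA genes without a linc symbol it held in 6 (6.52%). One of the 6 linc genes, linc-53, met the level for testing through Control alone, so its groups could not overlap. HLB01 was higher in linc-38, linc-17 and linc-45 (6.85% of all tested genes) and lower in linc-53, linc-64 and linc-20 (6.99%). Apart from linc-53, none of these passed the test, and the smallest adjusted p among the uncalled linc genes was 0.428. linc-38, at 10276942 to 10277353 on the minus strand of chromosome V, had 3.96, 3.76 and 2.24 TPM in HLB01, against 0.86, 2.14 and 0 TPM in Control. The log2 difference was 1.24 ± 0.40 (SE, limma adjusted p = 0.428), the largest of the uncalled linc genes, on 10.3 estimated fragments in all. Without Control replicate 3, its only library at 0, it was 0.81. The gene lies 550 bases from lys-1, a lysozyme gene on the other strand, which had 455.5, 445.0 and 468.0 TPM in HLB01, against 548.3, 636.8 and 685.7 TPM in Control. The lysozyme gene lay lower in every HLB01 library, by -0.44 ± 0.079 on the log2 scale (SE, limma adjusted p = 0.0955), and did not pass the test.

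linc-17, at 3596226 to 3596812 on the plus strand of chromosome II, had 2.91, 2.79 and 1.40 TPM in HLB01, against 1.37, 0 and 1.32 TPM in Control. HLB01 replicates 1 and 2 were well above the rest, replicate 3 was just above Control, and the log2 difference was 0.90 ± 0.37 (SE, limma adjusted p = 0.599), or 0.49 without Control replicate 2, its only library at 0. The gene linc-68 follows 703 bases downstream on the same strand, with 1.16, 0 and 0.83 TPM in HLB01 and 1.21, 0 and 1.55 TPM in Control. Replicate 2 of both groups is at 0 in linc-68, and its groups overlapped (log2 fold change -0.17 ± 0.42, limma adjusted p = 0.947). The sign of linc-68 turned without HLB01 replicate 2 (0.16).

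linc-45, at 3151809 to 3152607 on the plus strand of chromosome III, had 2.61, 2.87 and 2.54 TPM in HLB01, against 2.31, 1.77 and 2.24 TPM in Control (log2 fold change 0.25 ± 0.12, limma adjusted p = 0.675). Its upstream neighbour on the same strand, linc-19, lies 456 bases away and had 0.65, 0.47 and 1.01 TPM in HLB01, against 1.16, 1.28 and 0.73 TPM in Control (log2 fold change -0.27 ± 0.18, limma adjusted p = 0.766). The 2 genes of this pair had fold changes of opposite sign, and neither passed. Leaving out Control replicate 2 gave 0.16 for linc-45, and leaving out HLB01 replicate 2 gave -0.17 for linc-19.

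On the lower side, linc-64, at 1765233 to 1765806 on the plus strand of chromosome X, had 2.69, 1.99 and 2.08 TPM in HLB01, against 2.99, 3.49 and 2.90 TPM in Control (log2 fold change -0.35 ± 0.13, limma adjusted p = 0.545). linc-20, at 16508081 to 16509294 on the minus strand of the same chromosome, had 2.98, 2.6 and 4.06 TPM in HLB01, against 4.48, 4.24 and 4.09 TPM in Control (log2 fold change -0.34 ± 0.14, limma adjusted p = 0.606). Its highest HLB01 value is just under its lowest Control value. Of the uncalled genes whose groups overlapped, linc-34 on chromosome X had the smallest p on the lower side after these, with 0.86, 0.48 and 1.91 TPM in HLB01 and 1.17, 2.08 and 2.79 TPM in Control (log2 fold change -0.55 ± 0.30, limma adjusted p = 0.700). It was -0.34 without HLB01 replicate 2.

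**Figure D5:**
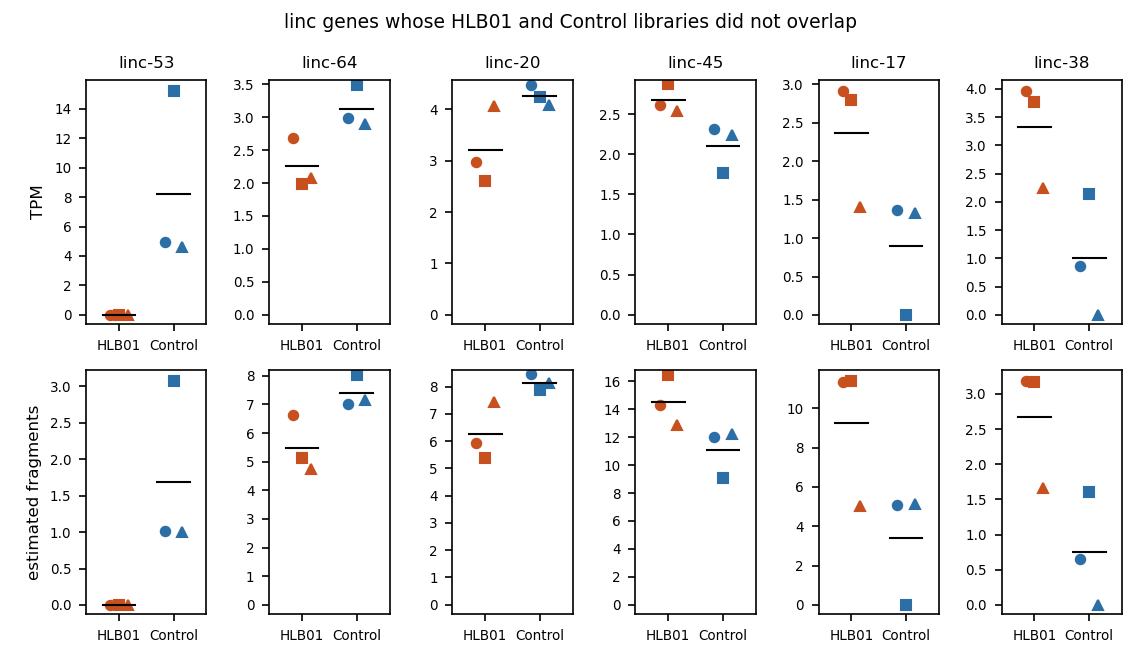
The 6 tested linc genes whose HLB01 (orange) and Control (blue) libraries did not overlap, in TPM (upper row) and as estimated fragments (lower row), with circles, squares and triangles for replicates 1, 2 and 3 and a line at the mean of each group. The vertical scales differ between panels; no library exceeds 3.18 fragments in linc-53 or linc-38.

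The most abundant and the best measured linc genes did not differ beyond the spread of their libraries. linc-7, at 16002599 to 16003728 on the plus strand of chromosome X, is a single exon of 1130 bases and the best measured linc gene, with 2510 fragments. It had 19.3, 22.1 and 17.4 TPM in HLB01, against 17.4, 13.6 and 21.8 TPM in Control, and its groups overlapped (log2 fold change 0.16 ± 0.16, limma adjusted p = 0.850). With 1 library left out its fold change lay between 0.00 (without Control replicate 2) and 0.32 (without Control replicate 3). It lies within the span of C09G1.4, a protein-coding gene on the other strand that averaged 1.08 ± 0.0907 TPM in HLB01 and 1.1 ± 0.225 TPM in Control (SD, n = 3 each). linc-9, at 3703542 to 3704956 on the plus strand of chromosome I, had 15.6, 18.1 and 21.2 TPM in HLB01, against 20.1, 10.3 and 15.5 TPM in Control (log2 fold change 0.28 ± 0.22, limma adjusted p = 0.809), a difference that was 0.04 without Control replicate 2, 0.17 without HLB01 replicate 3 and 0.49 without Control replicate 1. linc-22, at 9069138 to 9073735 on the plus strand of chromosome X, is the longest tested linc transcript, of 4071 bases, and had 3.37, 3.70 and 3.19 TPM in HLB01, against 3.18, 2.67 and 3.19 TPM in Control. With 1878 fragments its log2 difference was 0.14 ± 0.11 (SE, limma adjusted p = 0.809), or 0.08 without Control replicate 2.

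linc-6 shows the other end of the scale of precision. It is a single exon of 174 bases on the minus strand of chromosome X, at 1982710 to 1982883, and its mean of 14.2 TPM makes it the third most abundant linc gene. Its values were 15.7, 21.6 and 0 TPM in HLB01 and 16.5, 8.55 and 23.1 TPM in Control. They correspond to 2.08, 3 and 0 fragments in HLB01 and 2.08, 1.06 and 3.07 fragments in Control, so that the whole range of its values spans 0 to 3 fragments. Its difference on the log2 scale was -1.14 ± 1.12 (SE, limma adjusted p = 0.844). The HLB01 value of 0 is in replicate 3 alone, and without that library the difference turned to 0.29.

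linc-35, of 189 bases on the minus strand of chromosome II, at 6927637 to 6927825, likewise had 3.41, 17.5 and 6.95 TPM in HLB01 and 5.13, 5.29 and 8.03 TPM in Control on 9.2 fragments in all. linc-37, at 832984 to 833347 on the plus strand of chromosome III, had 4.95, 7.70 and 6.02 TPM in HLB01 and 3.89, 13.2 and 9.92 TPM in Control. It lies within zip-2 on the same strand, a bZIP transcription factor gene of the response to infection that averaged 382.9 ± 18.4 TPM in HLB01 and 395.5 ± 13.02 TPM in Control (SD, n = 3 each), so the division of reads between them is uncertain. linc-15, at 11991484 to 11991933 on the minus strand of chromosome X, had 6.69, 6.51 and 8.39 TPM in HLB01 and 5.78, 7.94 and 5.63 TPM in Control (log2 fold change 0.14 ± 0.15, limma adjusted p = 0.854), with 0.04 without HLB01 replicate 3 and 0.28 without Control replicate 2 as the extremes. In all 3 genes the groups overlapped, and none passed the test.

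The remaining 10 tested linc genes also had overlapping groups. linc-14 had the widest difference among them, with 4.80, 3.43 and 13.4 TPM in HLB01 and 3.81, 5.37 and 3.61 TPM in Control, 1 high library in HLB01 replicate 3 and 14.1 fragments in all (log2 fold change 0.46 ± 0.41, or -0.04 without that library). linc-5, linc-29, linc-24, linc-40, linc-21 and linc-11 had log2 fold changes of 0.29, 0.19, 0.11, 0.06, 0.03 and 0.02. linc-8, linc-16 and linc-96 were at -0.12, -0.15 and -0.07. Of these 9, linc-8, linc-16 and linc-24 kept their sign in all 6 fits with 1 library left out. Among the best measured of these, linc-40 averaged 6.19 ± 0.787 TPM in HLB01 and 5.92 ± 1.21 TPM in Control on 746.5 fragments, and linc-8 averaged 3.31 ± 0.350 TPM in HLB01 and 3.68 ± 0.265 TPM in Control on 334.0 fragments (SD, n = 3 each). The spread within groups was wide in linc-96 although it was seen more often: on 181.7 fragments it had 4.28, 1.16 and 1.86 TPM in HLB01 and 1.24, 2.64 and 3.63 TPM in Control. Of the 26 genes, 5 share exon positions with another gene that averaged at least 1 TPM over the libraries (linc-5, linc-16, linc-22, linc-37 and linc-40), so their values may hold reads of that gene.

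Set beside other non-coding classes, the linc genes were neither the most nor the least often detected. Of 13 further genes annotated as lincRNA without a linc symbol, 1 (7.69%) was at 0 throughout and 9 were tested. Of 57 anr genes, which are antisense RNA genes, 26 (45.6%) were at 0 and 4 were tested. Of 7740 other genes annotated as ncRNA, 7408 (95.7%) were at 0 and 92 were tested. These shares are descriptions, and the classes differ in transcript length. Of the 9 tested lincRNA genes, 2 had an unadjusted limma p under 0.05, both lower in HLB01, and 1 of these passed the adjusted threshold. This was Y39A3B.3 on chromosome III at 1985611 to 1986709, with 1.47, 1.41 and 1.57 TPM in HLB01, against 3.82, 3.11 and 3.68 TPM in Control. It was named after its values were seen, has no assigned role here, and differed by -0.87 ± 0.12 on the log2 scale (SE, limma adjusted p = 0.0368) on 32.9 estimated fragments. With any 1 library left out it did not pass (limma adjusted p = 0.0867 to 0.172), nor with the replicate block (0.099) or with no filter (0.113), while the log2 difference stayed between -0.94 and -0.82. Of the anr genes 0 passed by limma, with 1 at an unadjusted p under 0.05. Of the other ncRNA genes 1 passed by limma, F13B9.9, of 224 bases, with 4.31, 4.09 and 2.44 TPM in HLB01, against 0, 0 and 0 TPM in Control (limma adjusted p = 0.00674). Like linc-53 it rests on about 5 fragments and met the level for testing through 1 group alone, here HLB01.

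Among the long non-coding RNAs of the nematode with a described role, tts-1, a ribosome-associated RNA abundant in long-lived and dauer animals, was far more abundant than any linc gene. It had 4877, 4415 and 3798 TPM in HLB01 and 4789, 4676 and 4737 TPM in Control (log2 fold change -0.12 ± 0.087, limma adjusted p = 0.786), with -0.03 without HLB01 replicate 3, its lowest library, and -0.21 without HLB01 replicate 1. rncs-1, a double-stranded RNA that inhibits the Dicer enzyme and accumulates on starvation, had 4.89, 4.57 and 11.2 TPM in HLB01 and 6.12, 4.78 and 7.14 TPM in Control (log2 fold change 0.09 ± 0.31, limma adjusted p = 0.966), and its sign turned without HLB01 replicate 3, its highest library (-0.28). lep-5, which times the passage from larval to adult tail and nervous system, had 51.5, 54.3 and 51.7 TPM in HLB01, against 63.5, 60.8 and 64.3 TPM in Control. Its groups did not overlap, but it did not pass (log2 fold change -0.25 ± 0.047, limma adjusted p = 0.107). By its annotation lep-5 is 1 of the 13 lincRNA genes without a linc symbol.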

How the data were processed

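Sequencing libraries were prepared from total RNA by Illumina's standard procedure, per the labels' protocols. The deposited table holds TPM values, 1 column for each of the 6 libraries, given by the authors with 2 decimals. The submitters' processing notes name fastp, HISAT, RSEM and the build WBcel235, without versions. The sources used here give neither the annotation release nor the strand setting. TPM keeps no depth.

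Symbols, coordinates and transcript lengths came from the Ensembl annotation of WBcel235 (46603 identifiers found). Genes at 1 TPM or above in at least 3 libraries (12590) entered limma 3.58.1 (R 4.3.3) as log2(TPM + 1) with a trend, two-sided, with Benjamini-Hochberg adjustment. On this scale the changes of low genes are understated. The procedure was also tried on simulated normal values, with means and variances taken from these data. Such values hold no whole-fragment steps, so the trial does not cover genes of few fragments. The worth of 1 fragment was fitted on other genes with a single transcript of 160 to 1500 bases, as a constant per library over the effective length (fragments of mean 249 and SD 71 bases), and was not checked against counts. No estimate was made for 10 linc genes under 150 bases.

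Values by library are given for linc genes that passed, those at 0 in 1 group and at 1 TPM or above elsewhere, the 6 most abundant, and the 5 higher and 5 lower of smallest p. Members and lists were chosen with earlier results of these data known, and the other linc genes with library values were chosen after these were seen. Alternatives changed the trend, weights, pseudocount, filter or scaling, added the replicate number as a block, or left out a library.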

Additional observations from a re-analysis of the deposited data

How the results depend on the processing

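The 1 linc gene past the threshold became 0 without the trend, with a pseudocount of 5, with a filter of 5 TPM, with a pseudocount worth 1 estimated fragment and with at least 10 estimated fragments, the last 2 chosen after seeing the data. Both stricter filters leave linc-53 untested. With no filter the 1 linc gene was linc-36, which entered that test through its HLB01 libraries alone. Array weights, a pseudocount of 0.1, quantile scaling, removal of ribosomal RNA and the replicate block kept 1, linc-53. Leaving out 1 library gave 0 to 1 linc gene. The count over all tested genes (50) was 27 without the trend, 80 with array weights, 22 with no filter and 19 to 32 with 1 library left out. The median log2 fold change of the linc genes (0.047) was 0.00479 with no filter, 0.154 with a filter of 5 TPM and -0.00455 to 0.125 with 1 library left out. The cause of these shifts was not tested, apart from the genes and samples each setting removes. The log2 fold change of rncs-1 was -0.09 with array weights, and -0.28 to 0.29 with 1 library left out, with negative values without HLB01 replicate 3 (-0.28) and without Control replicate 2 (-0.05). Of the 26 tested linc genes, 10 turned sign with 1 library left out: linc-5 (-0.02 to 0.60), linc-6 (-1.96 to 0.29), linc-11 (-0.09 to 0.18), linc-14 (-0.04 to 0.81), linc-21 (-0.29 to 0.31), linc-29 (-0.00 to 0.37), linc-35 (-0.25 to 0.78), linc-40 (-0.05 to 0.20), linc-68 (-0.59 to 0.16) and linc-96 (-0.43 to 0.21). linc-21 was also at -0.03 with array weights. The difference of summed linc TPM, HLB01 minus Control, was -2.2 TPM and -9.7 to 2.5 TPM with 1 library left out. Deviations from the group means correlated at -0.013, 0.038 and 0.127 between same-numbered libraries of the groups. The highest value was 0.142, for HLB01 replicate 1 with Control replicate 2. These correlations cannot settle whether the replicate numbers pair the libraries, since the deviations sum to 0 within each group. The replicate block gave 48 genes in place of 50, of which 35 were among the 50. Fewer than 30 estimated fragments lay behind 7 of the 26 tested linc genes, and the part of depth in these results was not tested.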
